A study of Homo sapiens with 12 samples.

Results

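The genes CAV1, CAV2, CAVIN1 and CAVIN2, which encode coat proteins of caveolae, and the neighbouring gene MET were examined for open chromatin in 2 human cell lines. The assay was ATAC-seq: the transposase Tn5 cuts and tags accessible DNA, and peaks are called where tagged reads pile up. ARPE-19, a line of retinal pigment epithelial cells grown in medium with serum, and H7, a line of embryonic stem cells grown in mTeSR Plus, had 3 libraries each, made from 500000 cells per library, and no treatment is named. Peaks were taken where they lay within 50 kb of a gene interval, by position on hg19 and not by signal, and each was counted for its nearest gene. The peak farthest from its gene lay 49692 bases from CAVIN1 with 5 reads at its summit, and the nearest one left out lay 55392 bases from CAV1 with 10. This gave 82 of 170663 nuclear peaks, which merged into 41 of 84659 regions where peaks of any libraries overlapped. Each group is a single cell line. Separate cultures for its 3 libraries are not stated in the labels, and the p-values below speak of the spread among these libraries, which may be technical. Peaks at marker genes of either line were not analysed here, so the labels were not checked against markers.

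Caveolae are flask-shaped pits of the plasma membrane that form in many epithelial, endothelial and mesenchymal cells. Caveolin-1, the product of CAV1, is their main membrane-embedded coat protein outside muscle, and caveolin-2, from CAV2, assembles with it. The cavins form a second, peripheral coat: CAVIN1 (older symbol PTRF) is required for caveolae to form, and CAVIN2 (older symbol SDPR) helps to shape the membrane. MET, which lies beside the caveolin genes on chromosome 7, encodes the receptor tyrosine kinase for hepatocyte growth factor, a regulator of epithelial motility and growth. Retinal pigment epithelial cells are known to have caveolae.

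The 250 bases before the start of 4 of the 5 genes are shown because every ARPE-19 library had a peak within 1 kb of the starts of MET and CAVIN2, while no peak was called at the start of CAV1. They come from RefSeq on GRCh38.p14 and are read 5′ to 3′ on the strand of the gene. The start that RefSeq gives on that build may differ from the hg19 start used for the peaks, and the sequences were not aligned to the peaks. The CAV1 and MET starts used here lie at 116164839 and 116312459 on hg19, and their sequences end at 116525008 and 116672195 on GRCh38.p14. The spacing of these starts thus differs between the builds, and the reason was not tested. Capitals mark GGGCGG or its reverse complement CCGCCC, the core of the GC box of SP and KLF factors.

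MET, chr7:116671946-116672195, plus strand: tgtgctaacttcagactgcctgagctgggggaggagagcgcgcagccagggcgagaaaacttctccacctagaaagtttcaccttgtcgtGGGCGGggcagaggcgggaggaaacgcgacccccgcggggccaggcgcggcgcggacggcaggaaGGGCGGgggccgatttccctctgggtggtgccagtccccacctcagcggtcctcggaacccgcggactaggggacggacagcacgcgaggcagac
CAVIN2, chr2:191847089-191847338, minus strand: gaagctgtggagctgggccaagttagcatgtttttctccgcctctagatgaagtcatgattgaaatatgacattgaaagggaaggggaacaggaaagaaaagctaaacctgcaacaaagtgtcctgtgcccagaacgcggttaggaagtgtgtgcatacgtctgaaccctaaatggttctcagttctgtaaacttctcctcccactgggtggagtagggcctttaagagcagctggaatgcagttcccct
CAV2, chr7:116499488-116499737, plus strand: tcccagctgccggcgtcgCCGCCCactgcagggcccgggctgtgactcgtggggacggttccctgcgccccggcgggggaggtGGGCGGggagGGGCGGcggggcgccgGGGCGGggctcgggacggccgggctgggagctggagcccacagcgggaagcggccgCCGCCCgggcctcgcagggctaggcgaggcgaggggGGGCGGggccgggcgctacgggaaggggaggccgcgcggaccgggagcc
CAV1, chr7:116524759-116525008, plus strand: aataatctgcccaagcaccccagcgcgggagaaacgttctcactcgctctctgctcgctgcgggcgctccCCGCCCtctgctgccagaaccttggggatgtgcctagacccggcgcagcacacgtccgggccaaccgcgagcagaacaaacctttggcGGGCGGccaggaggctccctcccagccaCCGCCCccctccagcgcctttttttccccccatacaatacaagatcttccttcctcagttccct

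The core GGGCGG was found 6 times before CAV2, 3 times before CAV1, 2 times before MET and 0 times before CAVIN2, counted on both strands. At least 1 match was present in 42.6% of 35116 RefSeq promoter windows of this length. The sequence before CAVIN2 was also the poorest of the 4 in G and C, at 48.0% of its bases, against 68.4% for MET, 63.6% for CAV1 and 83.2% for CAV2, where the median of all windows was 58.0%. The letters TGACTCA (AP-1), ACATTCC (TEAD) and CCGGAA (ETS) and their reverse complements were in none of the 4 sequences. They were in 4.20%, 2.96% and 14.5% of all windows. No motif overlapped another, and a match or its lack describes these letters only.

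The lists differ in length over the whole genome, which bears on all counts below. They held 40105 to 48454 nuclear peaks in ARPE-19 and 8613 to 15342 in H7. Whole reads at each peak's summit, and the background they were tested against, were recovered from the fold and -log10 p of the lists. The genome-wide background, the mean reads expected at a position, was 1.37-fold higher in H7 than in ARPE-19. Whether this background follows nuclear depth alone was not tested. At that background, the fewest reads at the summit of a called peak were 4 in each ARPE-19 library and 5 to 6 in the H7 libraries. A missing peak below means that none was called, not that the chromatin was closed.

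More peaks were called around these genes in ARPE-19 than in H7, mainly at MET, CAVIN2 and CAV1. The ARPE-19 libraries held 22, 17 and 28 peaks around the 5 genes and the H7 libraries 3, 8 and 4. The means were 22.3 ± 5.51 and 5.00 ± 2.65 peaks (SD, n = 3), a difference of H7 from ARPE-19 of -17.3 (SE 3.53, exact permutation test, two-sided p = 0.1). Every ARPE-19 library was above every H7 library, and this design allows no p under 0.1. Bases under a peak came to 6831 ± 1485 for ARPE-19 against 1166 ± 566 for H7 (SD, n = 3), with the same exact permutation p of 0.1.

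Relative to list length, the lines did not differ beyond their spread. The 5 genes took 0.495, 0.424 and 0.578 of every 1000 nuclear peaks in the ARPE-19 libraries and 0.196, 0.584 and 0.464 in the H7 libraries (exact permutation p = 0.7, n = 3). The windows were richer in peaks than the genome at large in 5 of 6 libraries: per megabase they held 2.04 to 2.78 times as many as the nuclear chromosomes in ARPE-19, and 0.942, 2.81 and 2.24 times in H7. The chromosomes include centromeres and gene-free stretches, whereas each window holds a gene, and windows around other genes were not analysed here. With each list shortened to its 8613 strongest peaks, the length of the shortest list, the order turned, with 1 peak in each ARPE-19 library and 1, 5 and 4 in the H7 libraries (exact permutation p = 0.4, n = 3). That limit lies at a -log10 p of 15.7 to 18.9 in ARPE-19 and of 4.31 to 6.81 in H7, so it removes far stronger peaks from the ARPE-19 lists.

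**Figure D1:**
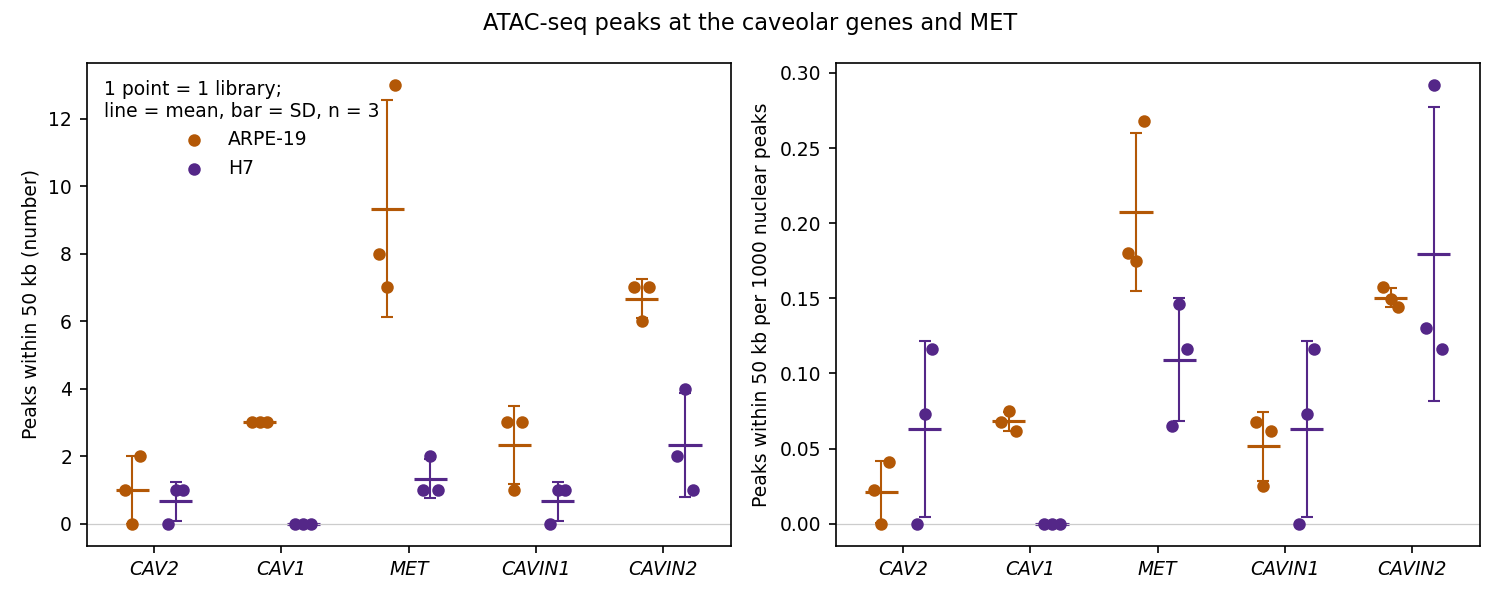
Peaks within 50 kb of each gene, as numbers (left) and per 1000 nuclear peaks of the library (right). Points are libraries, horizontal lines means and bars SDs (n = 3 per line); by number all ARPE-19 libraries lie above all H7 libraries at CAV1, MET and CAVIN2, and per 1000 peaks only at CAV1 and MET. No share over the genome was computed for the values per 1000 peaks.

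By gene, the libraries of the lines did not overlap in the number of peaks at 3 of 5 genes, CAV1, MET and CAVIN2. Over the genome, 41.7% of 24442 bins of 100 kb with at least 1 peak had more peaks in every ARPE-19 library than in every H7 library. The windows around the genes are longer than such a bin and overlap at CAV1 and CAV2, so the comparison is approximate. Of the 41 regions, 12 were called in each ARPE-19 library but never in H7, which is 29.3% against 26.0% of all 84659 regions. The share of regions with this pattern was thus near that of the genome. They will be called ARPE-19-only regions. CAVIN2 had 6 of them, MET had 3, CAV1 had 2, CAVIN1 had 1 and CAV2 had 0. The opposite pattern, a call in each H7 library but never in ARPE-19, was seen in 1 region, upstream of CAVIN2, or 2.44% against 1.82% of all regions. Peaks of both lines met in 4 regions, 3 at MET and 1 near CAVIN1, or 9.76% against 8.51% of all regions.

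Start sites were marked unevenly. A peak within 1 kb of the start was called at CAVIN2 in 3 of 3 ARPE-19 and 0 of 3 H7 libraries, at MET in 3 of 3 and 1 of 3, at CAV2 in 1 of 3 and 1 of 3, and at CAV1 and CAVIN1 in none. Summed over the 5 genes, this was 2, 2 and 3 starts in the ARPE-19 libraries and 0, 1 and 1 in the H7 libraries (exact permutation p = 0.1, n = 3). With the 8613 strongest peaks per library it was 0 in each ARPE-19 library and 0, 1 and 1 in H7, so the direction turned. The lines also overlapped for peaks with a -log10 q of 5 or more (0, 2 and 1 starts against 0, 0 and 0, exact permutation p = 0.4, n = 3). Within 2 kb of the starts the difference of H7 from ARPE-19 was -1.33 (exact permutation p = 0.3, n = 3). The share of all gene starts with these patterns was not analysed here, for want of gene models on hg19.

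CAV1, the gene of the main caveolar coat protein, had no peak at its start or inside its interval (chromosome 7, 116164839 to 116201239) in any of the 6 libraries. From 116140811 to 116209920 all 6 lists were empty, and these 69.1 kb contain the whole gene. Such spans were common: 12.0% of the 84635 stretches between neighbouring regions were at least as long, centromeres included, and together they made up 49.7% of the span of the nuclear chromosomes.

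All peaks counted for CAV1 lay past its end and in ARPE-19, with 3 peaks in each ARPE-19 library and 0 in each H7 library (exact permutation p = 0.1, n = 3). The ARPE-19-only region from 116216966 to 116217391, 15.7 kb past the end, had 16, 5 and 14 reads at the summit in ARPE-19 replicates 1, 2 and 3. Replicate 2 was well below the other libraries there. The other one, from 116209920 to 116210076 and 8.68 kb past the end, had 9, 5 and 6. A region from 116250270 to 116250530 was called in 2 of 3 ARPE-19 libraries with 6 and 8 reads, and one from 116211258 to 116211428 in replicate 3 with 5 reads. With the 8613 strongest peaks per library no peak was left at CAV1 in either line.

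CAV2, whose product joins caveolin-1 in the coat, had few peaks and none called in more than 2 libraries. The ARPE-19 libraries had 1, 0 and 2 peaks and the H7 libraries 0, 1 and 1, so the lines overlapped (exact permutation p = 1, n = 3). Per 1000 nuclear peaks the H7 mean was the higher one, 0.0630 ± 0.0587 against 0.0213 ± 0.0207 (SD, n = 3, exact permutation p = 0.4). In windows of 100 kb the difference of H7 from ARPE-19 grew to -2 peaks (exact permutation p = 0.1, n = 3). At the start (116139655), ARPE-19 replicate 3 had a peak from 116139661 to 116139855 with 7 summit reads. H7 replicate 3 had one from 116140636 to 116140811 with 8 summit reads, whose near edge lay 981 bases inside the gene. It was 780 bases away from the ARPE-19 peak and not the same region. Upstream, a region from 116117127 to 116117662 was called in ARPE-19 replicates 1 and 3 with 7 reads each, and one from 116105110 to 116105298 in H7 replicate 2 with 5.

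MET, the receptor gene, had the most regions of the 5 genes, 17 in all, and every one of them had an ARPE-19 peak. Of the 41 regions around the 5 genes, 35 had one, and the ARPE-19 lists are the longer ones. The share of all regions with an ARPE-19 peak was not computed. The ARPE-19 libraries held 8, 7 and 13 peaks and the H7 libraries 1, 2 and 1, with means of 9.33 ± 3.21 and 1.33 ± 0.577 (SD, n = 3, exact permutation p = 0.1). ARPE-19 replicate 3 held more than the other libraries, and 6 of the 17 regions were called in it alone. MET is also the longest of the 5 genes, with an interval of 125982 bases, and 10 of its 17 regions lay inside it. In RefSeq the noncoding RNA gene COMETT overlaps the MET start, and peaks were not assigned between these genes. Past the end of MET the next protein-coding gene in RefSeq is CAPZA2, on the plus strand. The 3 regions past the end are counted for MET by the rule, and their distance from CAPZA2 on hg19 was not analysed here. Per 1000 nuclear peaks, the share of MET was 0.208 ± 0.0526 for ARPE-19 against 0.109 ± 0.0409 for H7 (SD, n = 3), and the libraries of the lines still did not overlap (exact permutation p = 0.1). With the 8613 strongest peaks per library they did: MET then had 1 peak in each ARPE-19 library and 0, 2 and 1 in H7 (exact permutation p = 1, n = 3). How often the lines separate per 1000 nuclear peaks elsewhere in the genome was not analysed here.

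The strongest region of all 41 lay inside MET, from 116356711 to 116357070, with its summit 44.4 kb past the start. It had 23, 16 and 23 summit reads in ARPE-19 replicates 1, 2 and 3 and no H7 peak, and its summits in the 3 libraries lay within 22 bases of each other. It was the only ARPE-19 peak around these genes among the 8613 strongest of its library, in all 3 libraries. The 2 other ARPE-19-only regions of MET also lay inside the gene. The one from 116367742 to 116368034 had 7, 8 and 13 summit reads, and the one from 116416469 to 116417158 had 9, 9 and 18. In both, replicate 3 was the highest. The remaining MET regions without an H7 peak had calls in 1 or 2 ARPE-19 libraries with 6 to 16 summit reads, the highest in replicate 3 from 116293381 to 116293563, upstream of the gene. Whether these regions lie in exons or introns was not analysed here, for want of exon coordinates on the build of the peaks.

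At the MET start (116312459) the peaks of the ARPE-19 libraries did not all overlap. Replicates 1 and 3 had peaks from 116311862 to 116312196 with 7 and 9 summit reads and summits at -434 and -379 bases from the start. Replicate 2 had one from 116312221 to 116312487 with 11 summit reads and its summit at -148. Between it and the others lay 24 bases, so that these peaks stand in 2 regions although each ARPE-19 library has a peak at the start. The peak of H7 replicate 2, from 116312424 to 116312576 with 10 summit reads, overlapped that of ARPE-19 replicate 2 and had its summit 18 bases past the start. The nearest peaks of H7 replicates 1 and 3 were 15.5 and 34.4 kb away.

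**Figure D2:**
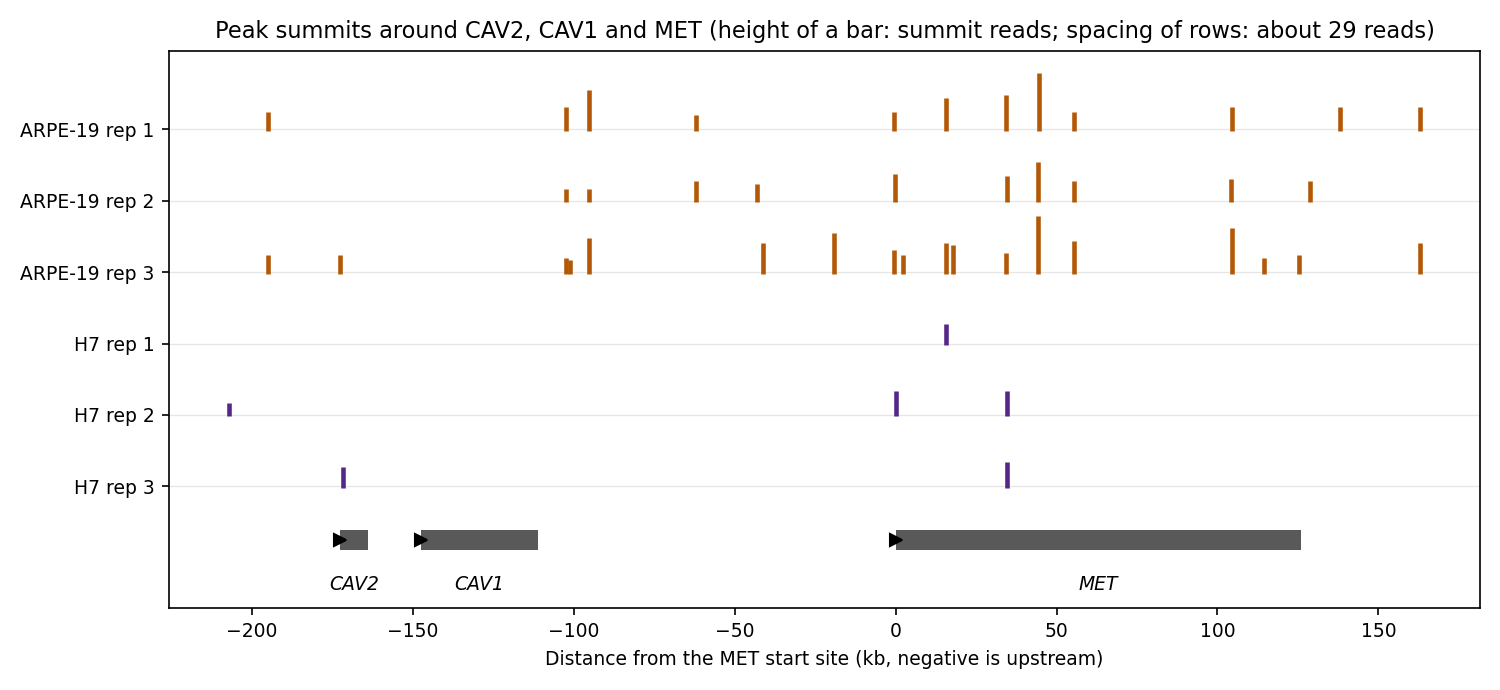
Peak summits of each library along CAV2, CAV1 and MET, by distance from the MET start in kb; the height of a bar gives the reads at the summit (5 to 23) and grey boxes are the gene intervals. ARPE-19 peaks recur past the end of CAV1 and inside MET, the CAV1 interval is empty in all 6 libraries, and H7 has 6 peaks within 50 kb of these genes; peaks outside that distance are not drawn.

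Inside MET, the region from 116346781 to 116347151 was called in more libraries than any other of the 41, in 3 of 3 ARPE-19 and 2 of 3 H7 libraries. It had 14, 10 and 8 summit reads in ARPE-19 replicates 1, 2 and 3 and 10 in each of H7 replicates 2 and 3. Divided by the genome-wide background of each library, this was 23.2 ± 5.22 (SD, n = 3) in ARPE-19 and 16.3 ± 0.774 (SD, n = 2) in the H7 libraries with a call. H7 replicate 1, which had no call there, does not enter that mean. The summits lay between 116346866 and 116346913 in ARPE-19 and at 116347070 and 116347082 in H7, at least 157 bases apart.

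The other region of MET with more than 1 ARPE-19 library and an H7 library, from 116327957 to 116328237, was called in ARPE-19 replicates 1 and 3 with 13 and 12 summit reads and in H7 replicate 1 with 8. Its ARPE-19 summits lay at least 158 bases from the H7 summit. At the MET start the distance between the lines within 1 region was 166 bases. Of the 2 regions around the 5 genes with peaks in at least 2 libraries of each line, the summits of the lines did not overlap in 1, the region inside MET. Over the genome this was so in 23.4% of 3259 such regions.

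CAVIN1, the cavin without which caveolae do not form, had no peak within 1 kb of its start (chromosome 17, 40575535, minus strand) in any library. The ARPE-19 libraries had 3, 1 and 3 peaks and the H7 libraries 0, 1 and 1 (exact permutation p = 0.3, n = 3), so the lines overlapped. Per 1000 nuclear peaks the H7 mean was slightly higher, 0.0630 ± 0.0587 against 0.0514 ± 0.0231 (SD, n = 3, exact permutation p = 0.8). All H7 peaks counted for CAVIN1 lay in 1 region past the end of the gene, described below. The ARPE-19-only region, from 40580359 to 40580671 and 4.82 kb upstream, had 9, 12 and 14 summit reads. Its summits in the 3 libraries lay within 91 bases of each other. The H7 peak nearest to the start was 34.7 kb away in replicates 2 and 3 and 93.8 kb away in replicate 1.

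The region near CAVIN1 that both lines shared, from 40540487 to 40540873, lay 13.6 kb past the end of the gene. It had 9 and 10 summit reads in ARPE-19 replicates 1 and 3 and 13 in each of H7 replicates 2 and 3. Relative to the background of the library, the means over libraries with a call were 21.1 ± 3.46 for ARPE-19 against 21.2 ± 1.01 for H7 (SD, n = 2). The gene that comes next on this side in RefSeq is STAT3, a transcription factor of cytokine signalling on the minus strand. The distance of the peak from STAT3 on hg19 was not analysed here. The remaining CAVIN1 peaks were called in 1 ARPE-19 library each, with 8 and 5 summit reads.

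CAVIN2, a cavin that shapes the caveolar membrane, had the most ARPE-19-only regions, 6 of its 12. This is 50% against 26.0% of all 84659 regions, a share that CAV1 also had, with 2 of its 4 regions. The ARPE-19 libraries held 7, 6 and 7 peaks and the H7 libraries 2, 4 and 1, with means of 6.67 ± 0.577 peaks against 2.33 ± 1.53 (SD, n = 3, exact permutation p = 0.1). No region at CAVIN2 was shared by the lines, where 8.51% of all 84659 regions were, so this says little for 12 regions. Per 1000 nuclear peaks the lines overlapped, at 0.151 ± 0.00655 for ARPE-19 against 0.179 ± 0.0977 for H7 (SD, n = 3, exact permutation p = 1). With the 8613 strongest peaks per library, CAVIN2 had 0 peaks in each ARPE-19 library and 1, 2 and 1 in H7 (exact permutation p = 0.1, n = 3), so the direction turned.

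The CAVIN2 start (chromosome 2, 192711981, minus strand) lay under a peak in each ARPE-19 library, in a region from 192711782 to 192712244 with 6, 9 and 9 summit reads. The summits lay 134 bases inside the gene in replicate 1, and at -31 and -57 bases, upstream, in replicates 2 and 3. The nearest H7 peak was 1.71 kb away, inside the gene in replicate 2, with 6 summit reads. In H7 replicates 1 and 3 it was 22.1 kb away.

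The stronger ARPE-19-only regions of CAVIN2 lay upstream of this start, with distances given to the nearest edge. The first, 19.6 kb upstream from 192731596 to 192732248, had 19, 14 and 19 summit reads in replicates 1, 2 and 3. The next, 31.3 kb upstream from 192743269 to 192743943, had 14, 11 and 17, and its summits lay within 18 bases of each other. The third, 47.2 kb upstream from 192759164 to 192759825, had 15, 12 and 14. Replicate 2 was the lowest in all 3 regions. The other 2 ARPE-19-only regions, which complete the set of 6, lay inside the gene from 192700260 to 192700611 with 8 to 10 summit reads and 7.20 kb upstream from 192719178 to 192719854 with 8 to 12. In RefSeq the noncoding RNA gene CAVIN2-AS1 overlaps this start, and peaks were not assigned between these genes.

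The H7-only region lay among these, 22.1 kb upstream of the CAVIN2 start, from 192734035 to 192734421. It had 10 summit reads in each of the 3 H7 libraries, and summits within 119 bases of each other. Only 1786 bases lie between it and the strongest ARPE-19-only region of CAVIN2, so that both lines had a reproducible peak in this stretch at different positions. It was among the 8613 strongest peaks in all 3 H7 libraries. In replicate 3 this holds for every peak, because its whole list has 8613, and replicates 1 and 2 held 15342 and 13698. The call was lost (0 H7-only regions) with a -log10 q of at least 5, or when a peak had to cover 50% of the merged region. Other H7 peaks of CAVIN2 were weaker or not repeated: a region from 192676837 to 192677150, past the end of the gene, had 7 and 5 summit reads in replicates 1 and 2, and the regions from 192705049 to 192705269 and from 192710072 to 192710269 were called in replicate 2 alone with 10 and 6. The last 2 regions of CAVIN2 were called in 1 ARPE-19 library each, with 7 and 11.

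**Figure D3:**
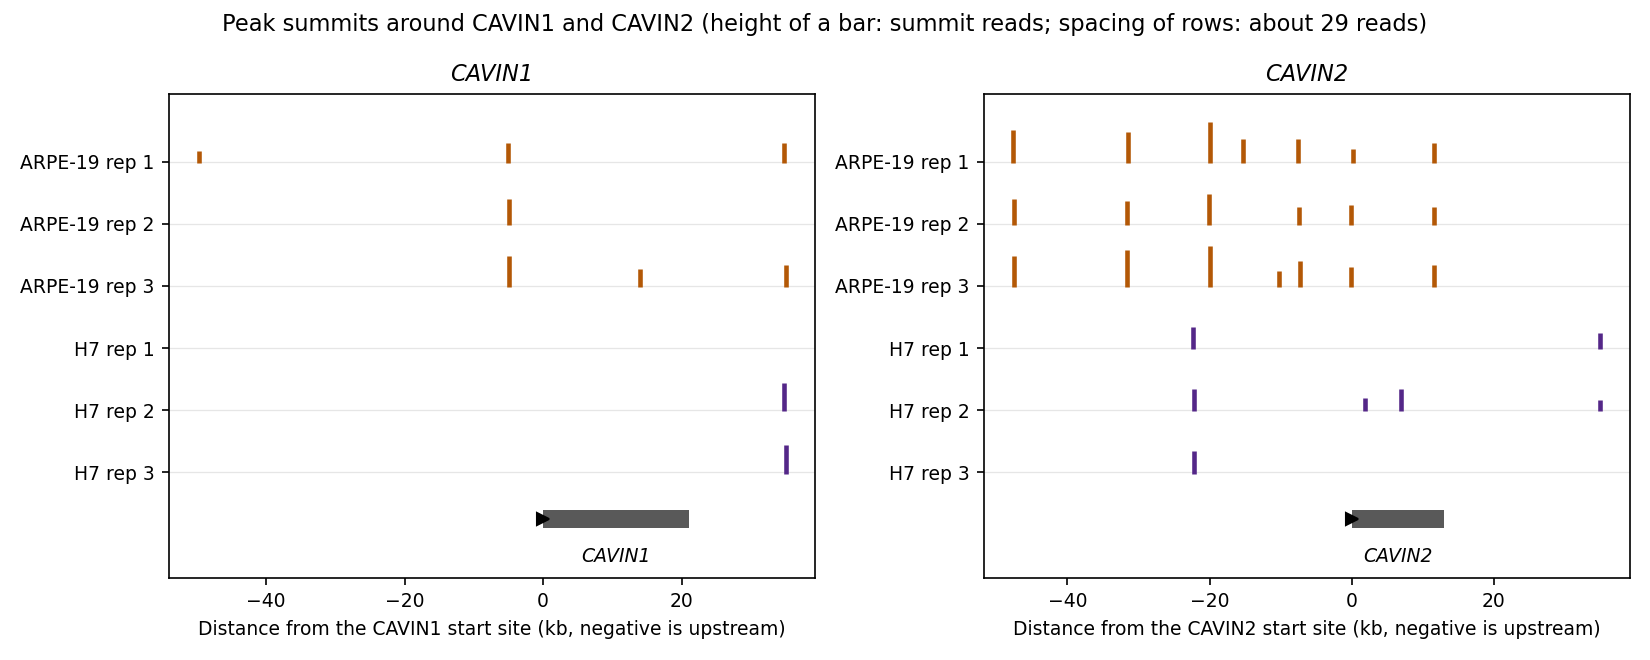
Peak summits of each library around CAVIN1 (left) and CAVIN2 (right), by distance from the start of the gene in kb with upstream on the left; the height of a bar gives the reads at the summit and grey boxes are the gene intervals. CAVIN2 shows 6 positions called in all 3 ARPE-19 libraries and 1 called in all 3 H7 libraries, 22.1 kb upstream.

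The peaks around the 5 genes were of middling strength within their lists. Their median stood at the 38.7th, 43.9th and 49.9th percentile of -log10 q in the ARPE-19 libraries and at the 36.7th, 60.9th and 53.6th in the H7 libraries (exact permutation p = 0.5, n = 3). Their median width was 288 ± 13.5 bases for ARPE-19 against 237 ± 25.4 for H7 (SD, n = 3, exact permutation p = 0.1), where 3 to 8 peaks stood behind each H7 value. Over all nuclear peaks the median widths were 261 to 275 bases in ARPE-19 and 224 to 229 in H7.

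**Figure D4:**
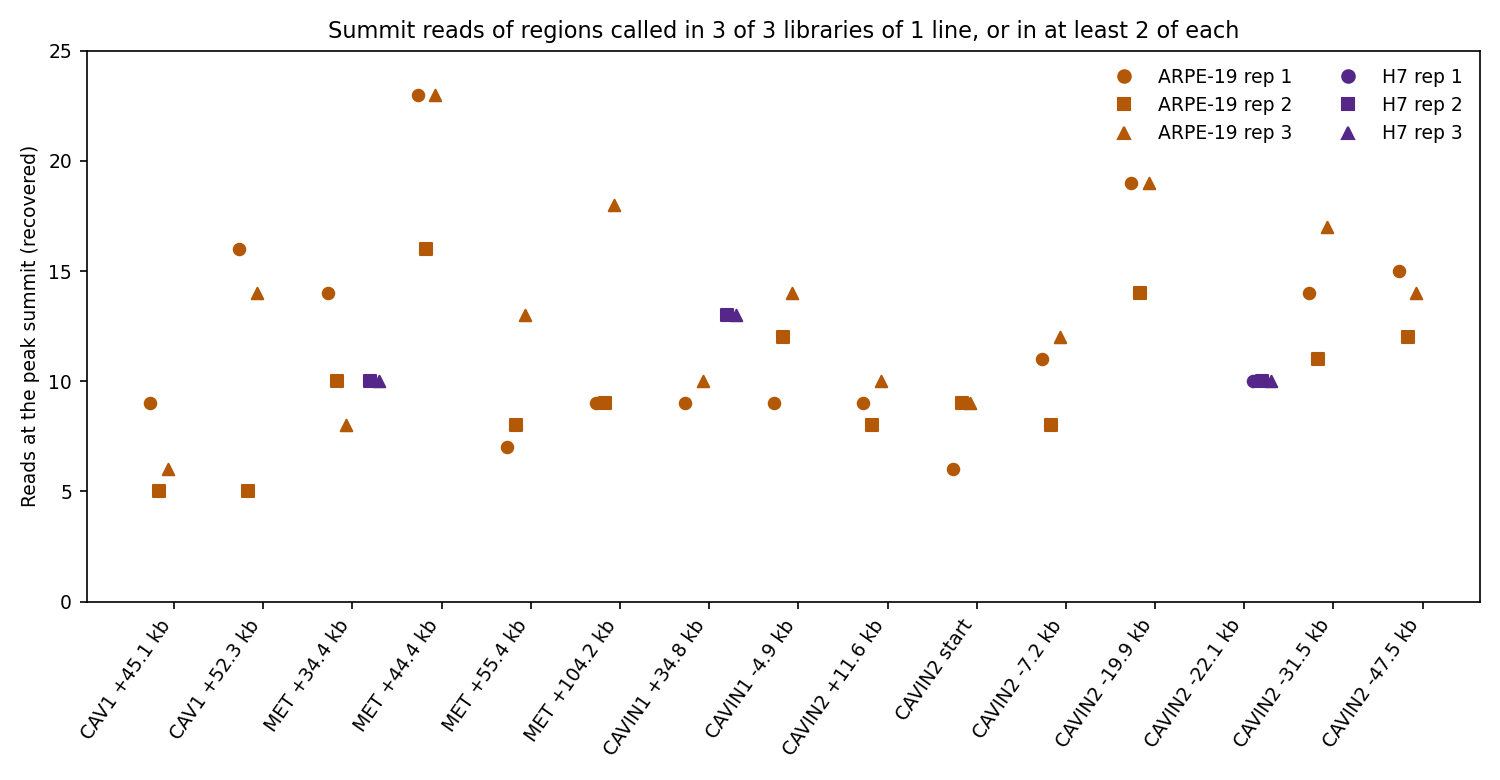
Reads at the summit in each library for the 12 ARPE-19-only regions, the H7-only region and the 2 regions with peaks in at least 2 libraries of each line, named by gene and distance of the nearest summit from its start. No point means no peak; the region 44.4 kb inside MET is the highest with 16 to 23 reads, and the H7-only region upstream of CAVIN2 has 10 in each H7 library.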

How the data were processed

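ATAC-seq peak lists of 3 ARPE-19 and 3 H7 libraries were used, and the 6 4C samples were left out. The authors used hg19, MACS2 and bedtools (no versions), per the submitters' processing notes. Aligner, duplicate removal and read shift are not given in the sources used here. Peaks were called per library. Each deposited peak has a score, 10 times its -log10 q, a fold enrichment (ratio of summit to local background) and -log10 values of p and q, as the authors' caller gave them.

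Gene intervals came from the rule that defines the set, strands from RefSeq except for CAVIN1 (textbook knowledge). Whole summit reads and the background were solved from fold and -log10 p as MACS2 defines them, within 0.001 for at least 99.988% of nuclear peaks per library. Reads may include duplicates, and counting error alone limits peaks of 5 to 23 reads. Peaks overlapping by at least 1 base were merged into regions. Libraries were compared by exact two-sided permutation tests over 20 assignments.

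The genes, lists and tests were chosen with earlier results of these data known. The rule named all 5 genes, regions at starts, regions in 3 of 3 H7 or in all 6 libraries, and up to 3 ARPE-19-only regions per gene by mean percentile of -log10 q. Other regions were named after their values were seen, so that each set is complete. Other genes of caveolae and of MET signalling were planned and need hg19 gene models, so they were not analysed here. Other settings tried were peaks with a -log10 q of 5 or more, equal list lengths, 1 threshold on -log10 p (4.31), windows of 20 and 100 kb, 500 bases or 2 kb around starts, overlap by 50% of a region, calls in 2 of 3 libraries, the replicate block and leaving out each library. The steps were tested on simulated data. Software was scipy 1.17.1, pandas 2.3.3, numpy 2.4.6 and matplotlib 3.10.9 under Python 3.11.15.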

Additional observations from a re-analysis of the deposited data

How the results depend on the processing

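The lower peak count of H7 over the 5 genes held under the other settings except equal list length, which removes most ARPE-19 peaks by construction. With the 8613 strongest peaks per library, the difference of H7 from ARPE-19 was 2.33 peaks and 466 bases over the 5 genes, 0.271 per 1000 nuclear peaks, 0.333 peaks at CAV2, 0 at CAV1, 0 at MET, 0.667 at CAVIN1, 1.33 at CAVIN2 and 0.667 starts, and 1 ARPE-19-only region was left. The difference per 1000 peaks ranged, with single libraries left out, from -0.169 (without H7 replicate 2) to 0.0253 (without H7 replicate 1). At CAV2 the difference was 0 in 20 kb windows and for peaks with a -log10 q of 5 or more, and -2 in 100 kb windows (exact permutation p = 0.1). With single libraries left out it ranged from -0.833 (without ARPE-19 replicate 2) to 0.167 (without ARPE-19 replicate 3), and was 0 without H7 replicate 1. The difference in starts was -1 for peaks with that -log10 q (exact permutation p = 0.4) and -1.33 within 2 kb (p = 0.3). ARPE-19-only regions numbered 6 with a -log10 q of at least 5. H7-only regions numbered 0 with that limit, with 20 kb windows and with 50% of the region required, 2 with calls in 2 of 3 libraries, and 1 to 2 without single libraries (2 without H7 replicate 3). The regions called in every library used numbered 0 to 1, with 1 without H7 replicate 1, the region of MET with 5 calls. Genome-wide, ARPE-19-only regions made up 14.7% of regions at equal list length and 36.0% with a -log10 q of at least 5. All regions around the 5 genes were not counted under these settings, so no share at the genes can be set beside these. Merging peaks up to 100 bases apart was chosen after seeing the data and moved no region count by over 1.5 times. With the replicate block, the difference over the 5 genes was again -17.3 peaks (exact sign-flip p = 0.25, the smallest possible with 3 pairs). No shared deviation of same-numbered libraries was seen over 24442 bins of 100 kb (correlations of -0.0088, 0.0011 and 0.028). Differently numbered libraries gave -0.039 to 0.034. Such values cannot tell whether libraries were paired by culture or batch. The planned test of summit reads in regions called in all 6 libraries was not run, because there were 0 such regions. A peak of 5 reads is close to the limit of detection, and the causes of these changes were not tested.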
